A study of Homo sapiens with 6 samples.

Results

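The 44 genes described here encode the machinery with which the endoplasmic reticulum (ER) takes in, folds and disposes of proteins. The list goes by function and its rule uses no measured value, but it was drawn up with earlier results of these data known. All 44 were found among the 11363 genes listed in the deposited table. The cells are NOMO-1, a line grown from a human acute myeloid leukaemia with monocytic features. RNA sequencing covered 2 groups of 3 libraries each. The MSLN-KO group is NOMO-1 with MSLN, the gene of the surface glycoprotein mesothelin, knocked out, and the WT group is the parental line. The labels do not say how the knockout was made, whether the MSLN-KO cells are 1 clone or a pool, or whether replicates were separate cultures, so the spread behind each p-value is only that of these samples and may be technical. The 44 genes were ordered by role into 4 sensors, 9 chaperones and lectins, 10 genes of oxidative folding, 9 of the translocon and 12 of degradation. The sensor role includes XBP1, which is a transcription factor downstream of a sensor and not a sensor itself.

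Proteins bound for secretion or for membranes enter the ER through the SEC61 channel, are held by chaperones such as BiP while disulfide bonds form, and are returned to the cytosol for degradation if they fail to fold. When unfolded protein builds up, the membrane proteins IRE1 and ATF6 signal to the nucleus. IRE1 cuts the mRNA of XBP1 into a form that encodes an active transcription factor, and ATF6 is released by cleavage in the Golgi. Both factors are known to raise genes of folding and degradation, a programme called the unfolded protein response.

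The listed genes held between 23665824 and 30804446 reads per library, as read back from the steps of the deposited CPM values (counts per unit of TMM-scaled library size). MSLN itself stood at 45.7, 46.9 and 45.3 CPM in MSLN-KO and at 153.2, 122.9 and 105.9 CPM in WT (log2 change -1.43, SE 0.10, limma adjusted p = 1.5e-07), 0.361 of the WT mean on average and in the direction of the labels. All 8 markers set for a monocytic leukaemia line were listed. Their summed level was 7510 to 7950 CPM in MSLN-KO and 16100 to 16700 CPM in WT, most of it from the lysozyme gene LYZ (6081 CPM in MSLN-KO and 14540 CPM in WT on average). The 8 markers did not move together: LYZ, CSF1R (log2 change -0.39), CD68 (-0.37) and ITGAM (-0.23) were lower, CD33 (0.39) and CEBPA (0.40) higher, and SPI1 (-0.13) and PTPRC (-0.10) were not called. Of plasma cell, B cell and erythroid markers 0 of 6, 0 of 3 and 0 of 4 were listed, and of T and NK cell, epithelial, and stromal and endothelial markers 1 of 4, 1 of 5 and 1 of 5. Those were NKG7 (29.3 to 34.8 CPM in MSLN-KO and 37.1 to 40.9 CPM in WT), KRT18 (7.07 to 9.05 CPM in MSLN-KO and 7.97 to 9.71 CPM in WT) and PECAM1 (379 to 387 CPM in MSLN-KO and 497 to 533 CPM in WT). The part of these shifts in the results below was not tested. On chromosome 15, 308 of 371 listed genes were lower in MSLN-KO, with a median log2 change of -0.57, which touches the members PDIA3 and SELENOS.

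Of the 44 genes, 24 were called at an adjusted p under 0.05 by limma on log2(CPM + 1), which is 54.5% against 45.7% of all genes tested. The members were therefore called about as often as genes at large. Of them, 17 (38.6%) were lower in MSLN-KO, against 23.3% of all genes, and 7 (15.9%) were higher, against 22.4%. The median log2 change was -0.06 over the members and 0.01 over all genes. In 27 members (61.4%) the MSLN-KO and WT libraries did not overlap, against 54.7% of all genes. The roles differed in direction: 3 of 4 sensors were higher and 0 lower, 13 of 19 genes of chaperones and oxidative folding were lower and 0 higher, and 6 of 9 translocon genes were not called. In these bulk libraries a change of RNA per cell and a change in the share of cells that express a gene cannot be told apart.

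**Figure D1:**
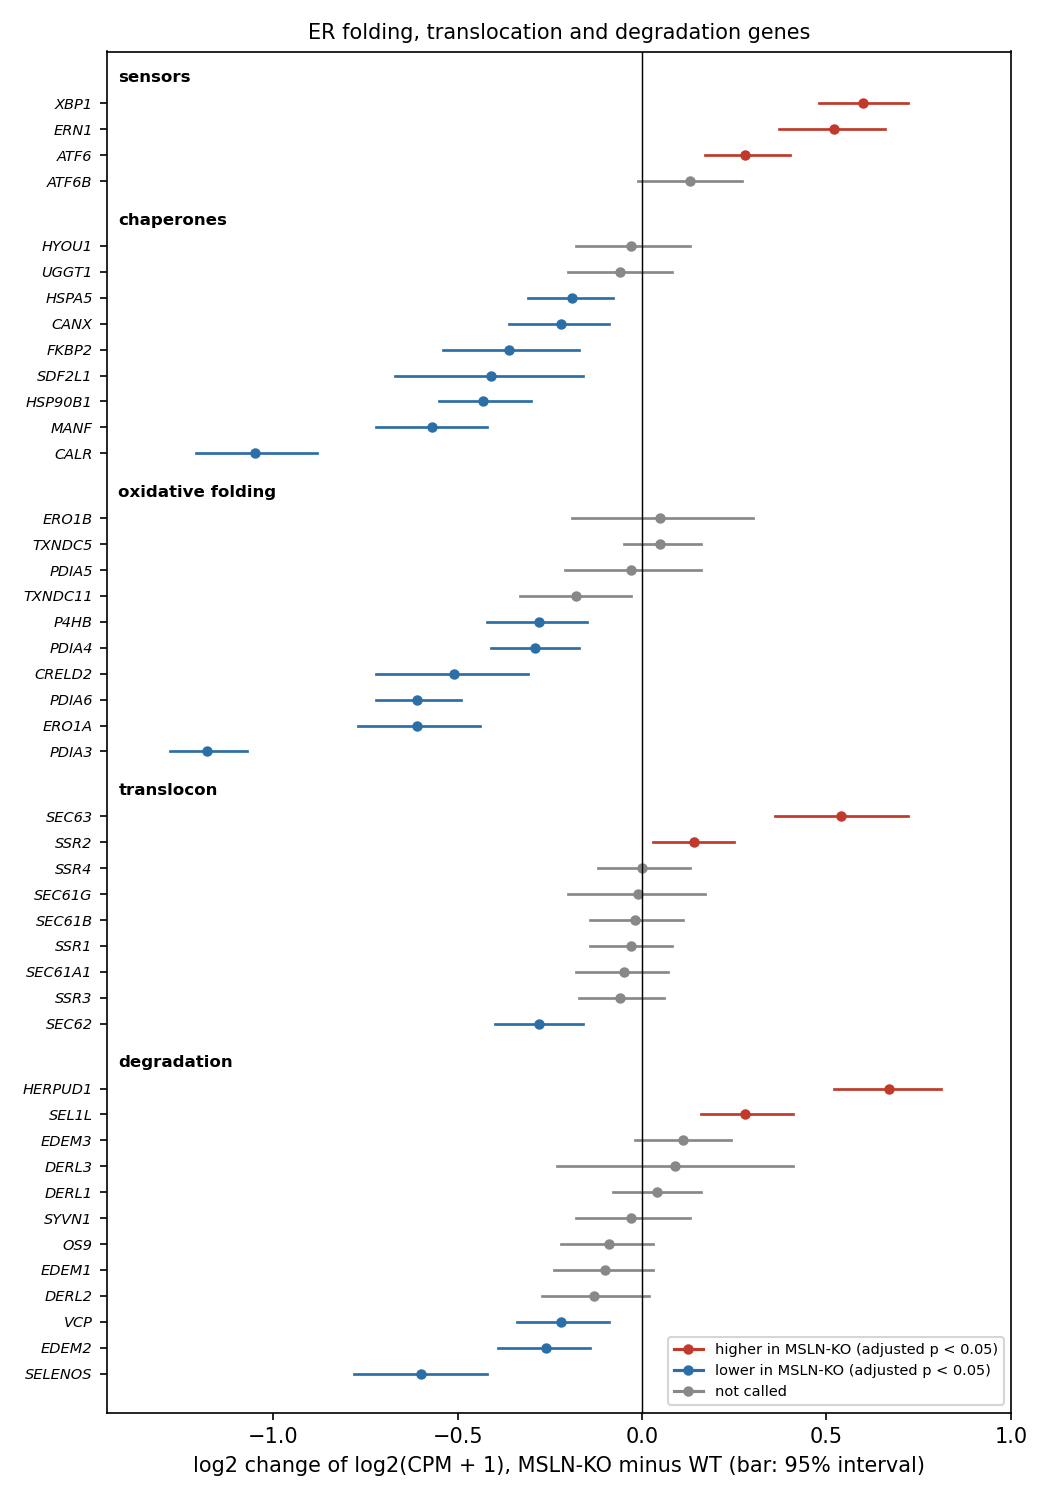
Log2 change of each of the 44 genes in MSLN-KO relative to WT (points, x axis) with its 95% interval from limma (bars), grouped by role, red where called higher, blue where called lower and grey where not called. The chaperone and oxidative folding genes lie mostly left of 0, down to -1.18 for PDIA3, the sensors lie right of 0, and 6 of 9 translocon genes sit within 0.06 of it.

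The promoters show what several of the members share in sequence. RefSeq promoter entries (GRCh38.p14, 250 bases before to 50 after a gene's start) were matched by symbol for 41 of the 44 genes, in 56 entries. No entry was matched for DERL1, DERL3 and PDIA3. Each entry was searched on both strands for the ER stress element, CCAAT and CCACG separated by 9 bases, and for the ER stress element II, ATTGG and CCACG separated by 1 base. These are elements through which ATF6, with the factor NF-Y, is known to act. At least 1 of the elements was found in 11 of the 41 genes (26.8%), against 44 of 27305 genes with a promoter entry (0.161%). The genes were CALR, CANX, HSP90B1, HSPA5, HYOU1 and SDF2L1 among the chaperones and CRELD2, ERO1B and PDIA6 in oxidative folding. The others were the transcription factor XBP1, placed in the sensor role, and the degradation gene HERPUD1. None of the 9 translocon genes held either. A match is a description of the letters and does not show a site in use. Genes of folding and degradation are known to be raised through such elements. Their share among these members is therefore background and not a result of these data.

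The stretches around these matches are shown 5′ to 3′ on each gene's own strand, since they stand before genes that went both ways. Capitals mark the matched fixed bases of the elements (2 elements in HSP90B1 and in HYOU1), which read CGTGG and ATTGG or CGTGG and CCAAT where the element lies on the other strand, and in HERPUD1 and HYOU1 they also mark the motifs named afterwards.
HSPA5, chr9:125241379-125241421, minus strand: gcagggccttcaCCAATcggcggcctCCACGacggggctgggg
HSP90B1, chr12:103930204-103930351, plus strand: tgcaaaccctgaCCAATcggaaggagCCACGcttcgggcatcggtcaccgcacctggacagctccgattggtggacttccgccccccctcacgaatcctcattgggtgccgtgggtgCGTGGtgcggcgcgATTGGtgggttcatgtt
CALR, chr19:12938372-12938414, plus strand: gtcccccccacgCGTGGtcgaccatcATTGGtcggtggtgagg
CANX, chr5:179698766-179698808, plus strand: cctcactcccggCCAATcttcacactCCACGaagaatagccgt
PDIA6, chr2:10812841-10812883, minus strand: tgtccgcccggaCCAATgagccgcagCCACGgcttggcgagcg
CRELD2, chr22:49918542-49918584, plus strand: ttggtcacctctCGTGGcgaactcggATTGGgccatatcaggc
ERO1B, chr1:236282171-236282208, minus strand: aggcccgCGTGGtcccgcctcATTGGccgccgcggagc
SDF2L1, chr22:21642102-21642136, plus strand: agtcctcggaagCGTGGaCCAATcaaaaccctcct
HYOU1, chr11:119057262-119057405, minus strand: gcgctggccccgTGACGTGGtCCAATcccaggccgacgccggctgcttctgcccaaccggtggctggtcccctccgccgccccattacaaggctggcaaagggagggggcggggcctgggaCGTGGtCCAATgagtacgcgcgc
XBP1, chr22:28800591-28800633, minus strand: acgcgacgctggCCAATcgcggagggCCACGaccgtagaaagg
HERPUD1, chr16:56931954-56932047, plus strand: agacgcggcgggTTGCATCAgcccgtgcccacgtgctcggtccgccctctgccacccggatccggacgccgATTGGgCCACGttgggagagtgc

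Of the 11 genes with an ER stress element of either kind, 7 were lower in MSLN-KO (CALR, PDIA6, CRELD2, HSP90B1, SDF2L1, CANX and HSPA5), 2 were higher (HERPUD1 and XBP1) and 2 were not called (HYOU1 and ERO1B). Of these 11, 6 are chaperone and 3 oxidative folding genes. In those 2 roles 13 of 19 genes (68.4%) were lower with or without an element, against 23.3% of all genes. The part of the element was not tested. The 15 other listed genes with an ER stress element had 3 lower, 1 higher and 11 not called, with a median log2 change of 0.01. Named after their values were seen, those called were GYS1 (-0.56), TRIM5 (-0.32), SHCBP1 (-0.24) and EIF2A (0.20). The core TGACGTGG of the unfolded protein response element, which XBP1 is known to bind, was found in 7 of the 56 member entries (12.5%), against 0.729% of all 35116 entries. These belonged to HYOU1, where it overlaps an ER stress element II, and to SEC62, SSR3, SSR4, TXNDC5, TXNDC11 and VCP. Of these 7 genes, SEC62 and VCP were lower and 5 were not called. The core TGATGCAA of the amino acid response element, through which ATF4 is known to act, was found in 1 member entry, that of HERPUD1 (1.79% of entries, against 0.866% of all).

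Of the 4 genes of the sensor role, 3 rose (75%, against 22.4% of all genes) and 1 was not called. XBP1 (ENSG00000100219.17, GRCh38 chromosome 22, 28794555 to 28800597), the transcription factor downstream of IRE1, stood at 224.9, 234.3 and 230.7 CPM in MSLN-KO and at 158.2, 152.3 and 143.6 CPM in WT. Each MSLN-KO library lay above each WT library, with a log2 change of 0.60 (SE 0.05, adjusted p = 1.6e-06). The values count all reads of the gene, so they do not show how much of the mRNA was in the spliced form. ERN1, which encodes IRE1 itself, stood at 63.8, 68.8 and 69.4 CPM in MSLN-KO and at 47.1, 49.7 and 43.7 CPM in WT (log2 change 0.52, SE 0.07, adjusted p = 3.5e-05). It rose by about as much as XBP1, and the ratio of XBP1 to ERN1 overlapped between the groups (3.42 ± 0.1 in MSLN-KO and 3.24 ± 0.15 in WT, SD, n = 3 each); this and the other ratios between genes below were picked after their values were seen.

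ATF6 stood at 115.0, 119.4 and 120.4 CPM in MSLN-KO and at 96.0, 96.1 and 98.5 CPM in WT (log2 change 0.28, SE 0.05, adjusted p = 0.00062). The groups did not overlap. ATF6B, its paralogue, stood at 91.7, 93.2 and 82.7 CPM in MSLN-KO and at 86.0, 75.9 and 82.5 CPM in WT. The groups overlapped and the gene was not called (log2 change 0.13, 95% interval -0.01 to 0.27, adjusted p = 0.13); without MSLN-KO replicate 3 it was (0.18, adjusted p = 0.039). The PERK gene EIF2AK3, the remaining membrane sensor of the response, which is not on the list of 44 and was named after its value was seen, averaged 38.4 CPM in MSLN-KO and 36.6 CPM in WT (log2 change 0.07, adjusted p = 0.47). Its RNA level does not show whether PERK was active.

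**Figure D2:**
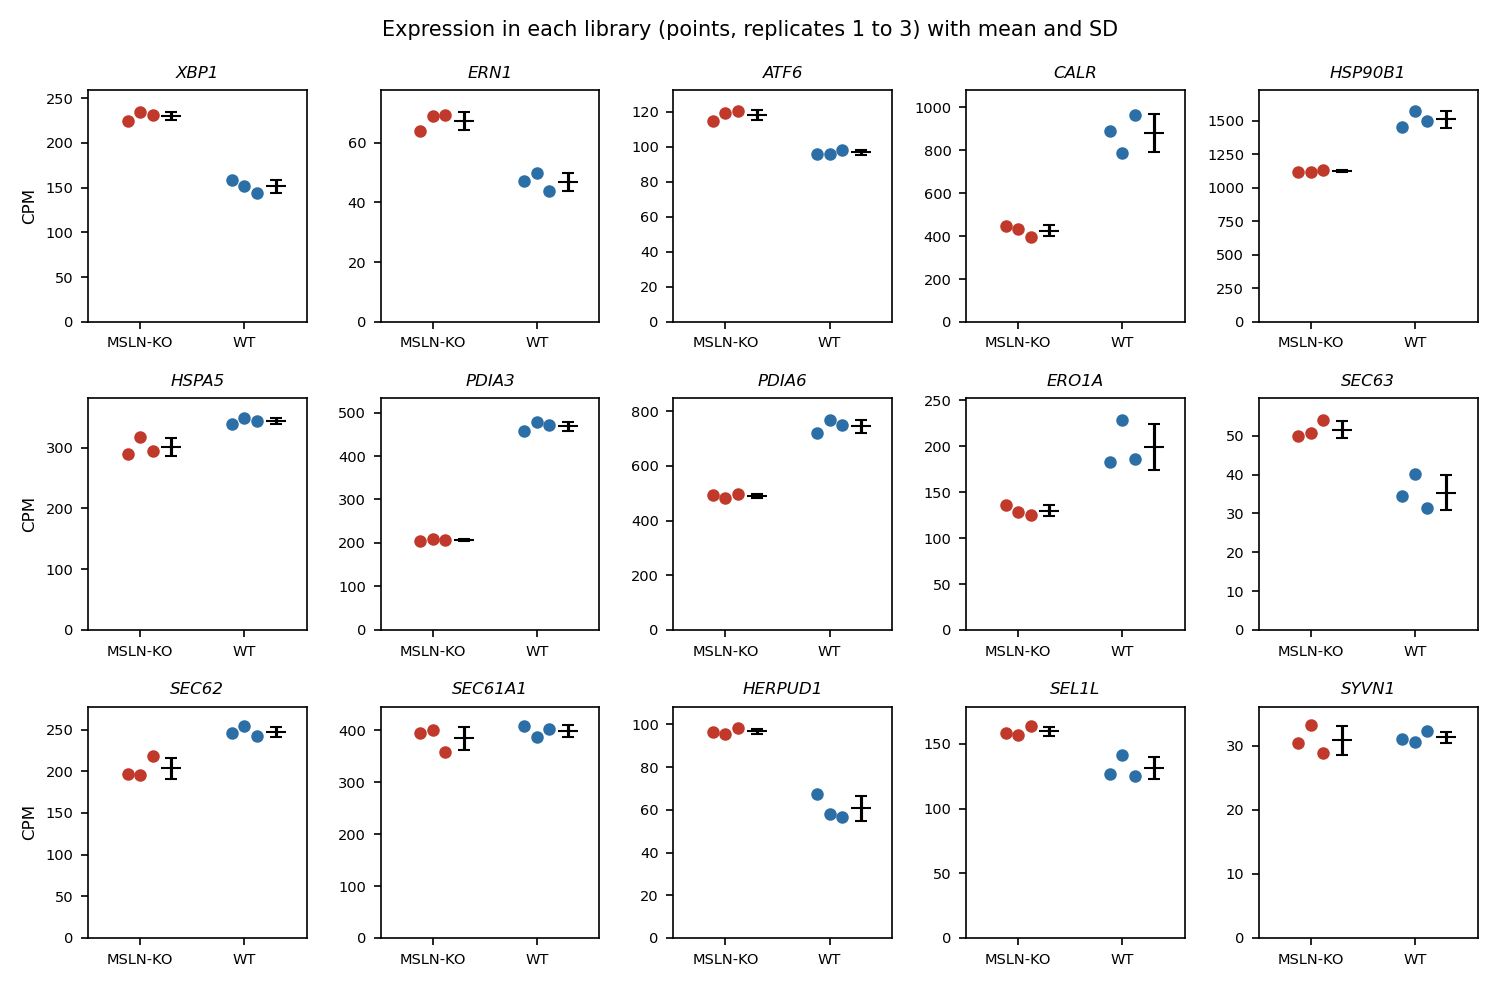
CPM (y axis, from 0) of 15 of the genes in each of the 3 MSLN-KO libraries (red, left) and the 3 WT libraries (blue, right), with the mean and SD of each group beside the points. XBP1, ERN1, ATF6, SEC63, HERPUD1 and SEL1L were higher in each MSLN-KO library than in any WT library, CALR, HSP90B1, HSPA5, PDIA3, PDIA6, ERO1A and SEC62 were lower, and SEC61A1 and SYVN1 overlapped.

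Among the chaperones and lectins, 7 of 9 fell (77.8%, against 23.3% of all genes), 0 rose and 2 were not called. Their median log2 change was -0.36. CALR (ENSG00000179218.15, chromosome 19, 12938578 to 12944489) encodes calreticulin, the soluble lectin that holds glycoproteins in the ER. It stood at 445.5, 435.3 and 395.2 CPM in MSLN-KO and at 887.5, 789.2 and 966.5 CPM in WT (log2 change -1.05, SE 0.08, adjusted p = 1.9e-07). Its mean in MSLN-KO was 0.483 of the WT mean. CANX, which encodes calnexin, the membrane-bound counterpart of calreticulin, was among the smaller falls. Its values, given because it pairs with CALR and chosen after they were seen, were 1544, 1596 and 1528 CPM in MSLN-KO and 1744, 1876 and 1831 CPM in WT (log2 change -0.22, SE 0.06, adjusted p = 0.0096). The ratio of CALR to CANX was therefore lower, at 0.289, 0.273 and 0.259 in MSLN-KO, against 0.509, 0.421 and 0.528 in WT.

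HSP90B1, the gene of the ER chaperone GRP94, stood at 1116, 1121 and 1133 CPM in MSLN-KO and at 1456, 1575 and 1499 CPM in WT (log2 change -0.43, SE 0.06, adjusted p = 6.7e-05). The MSLN-KO libraries lay close together and below all WT libraries. HSPA5 encodes BiP, the HSP70 of the ER and the common reporter of the unfolded protein response, and is given for that reason, with its values known. It stood at 289.8, 317.2 and 295.1 CPM in MSLN-KO and at 339.3, 349.3 and 343.4 CPM in WT. Although the groups did not overlap, its fall was the smallest of the 7 (log2 change -0.19, SE 0.05, adjusted p = 0.0098). Without MSLN-KO replicate 1 neither HSPA5 (-0.17, adjusted p = 0.067) nor CANX (-0.22, adjusted p = 0.056) was called.

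MANF encodes a small secreted protein that binds BiP. It stood at 32.7, 32.9 and 32.3 CPM in MSLN-KO and at 51.1, 44.4 and 51.7 CPM in WT (log2 change -0.57, SE 0.07, adjusted p = 2.7e-05). SDF2L1, whose product works with a J-domain partner of BiP, was a low gene at 9.87, 9.30 and 7.29 CPM in MSLN-KO and 11.8, 10.7 and 13.7 CPM in WT (log2 change -0.41, SE 0.12, adjusted p = 0.013). Its groups were close, and without WT replicate 3 it was not called (-0.32, adjusted p = 0.072). The ER prolyl isomerase gene FKBP2 fell by 0.36 on the log2 scale (adjusted p = 0.0047). Not called were HYOU1, a nucleotide exchange factor of BiP (log2 change -0.03, 95% interval -0.18 to 0.13), and UGGT1, which marks misfolded glycoproteins for another round with the lectins (-0.06, interval -0.20 to 0.08).

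In oxidative folding, 6 of 10 genes fell (60%, against 23.3% of all genes), 0 rose and 4 were not called. Their median log2 change was -0.29. The change furthest from 0 was that of PDIA3 (ENSG00000167004.14, chromosome 15, 43746392 to 43773279), the disulfide isomerase ERp57 that works with calreticulin and calnexin. It stood at 204.0, 208.9 and 207.2 CPM in MSLN-KO and at 456.4, 477.1 and 471.6 CPM in WT (log2 change -1.18, SE 0.05, adjusted p = 1.1e-09). The annotation places 14.8% of its exon bases also in ELL3 on the opposite strand, and ELL3 is not listed. The 117 other listed genes within 10 Mb of it had a median log2 change of -0.53, and with that median subtracted PDIA3 stood at -0.65 (adjusted p = 4.3e-07). Without PDIA3, which is the 1 gene of these 2 roles on chromosome 15, 12 of 18 chaperone and oxidative folding genes were lower and 0 higher.

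PDIA6, another disulfide isomerase, with 25.2% of its exon bases shared with the unlisted ATP6V1C2 on the opposite strand, stood at 491.8, 480.9 and 495.7 CPM in MSLN-KO and at 719.0, 766.2 and 750.5 CPM in WT (log2 change -0.61, SE 0.05, adjusted p = 1.2e-06). ERO1A encodes the oxidase that recharges disulfide isomerases and is also known as a hypoxia gene. It stood at 136.3, 128.0 and 125.3 CPM in MSLN-KO and at 183.4, 228.2 and 186.3 CPM in WT (log2 change -0.61, SE 0.08, adjusted p = 3.5e-05). WT replicate 2 stood above the other WT libraries, and the groups did not overlap. Its paralogue ERO1B was not called, at 11.9 to 15.7 CPM in MSLN-KO and 11.6 to 14.5 CPM in WT (log2 change 0.05, 95% interval -0.19 to 0.30, adjusted p = 0.72). The ratio of ERO1A to ERO1B was 9.88 ± 1.6 in MSLN-KO and 15.6 ± 0.57 in WT (SD, n = 3 each) and did not overlap.

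CRELD2, an ER protein with isomerase activity, stood at 15.9, 13.6 and 13.6 CPM in MSLN-KO and at 22.2, 18.5 and 22.2 CPM in WT (log2 change -0.51, SE 0.09, adjusted p = 0.00073). PDIA4 (log2 change -0.29, adjusted p = 0.0011, and -0.45 with the regional median subtracted) and P4HB, the founding protein disulfide isomerase (-0.28, adjusted p = 0.0023), fell by less. TXNDC11 was just outside the threshold (-0.18, adjusted p = 0.052), although its groups did not overlap, and it was called without MSLN-KO replicate 1 (-0.23, adjusted p = 0.044) or WT replicate 2 (-0.22, adjusted p = 0.03). PDIA5 and TXNDC5 were not called (log2 changes of -0.03 and 0.05, with intervals between -0.21 and 0.16), although TXNDC5 was slightly higher in each MSLN-KO library than in any WT library. In GENCODE 29, 60.6% of the exon bases of TXNDC5 also belong to a readthrough transcript with BLOC1S5. Of the exon bases of PDIA5, 12.2% also lie in exons of the listed gene SEC22A on the same strand. The treatment of such reads in the counting is not stated.

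Of 9 translocon genes, 2 rose, 1 fell and 6 were not called (33.3% called, against 45.7% of all genes), with a median log2 change of -0.02. SEC61A1, SEC61B and SEC61G, the channel subunits, had log2 changes of -0.05, -0.02 and -0.01, with 95% intervals between -0.20 and 0.17. SEC61A1 stood at 394.5, 400.0 and 359.1 CPM in MSLN-KO and at 408.5, 386.3 and 402.2 CPM in WT, and the groups overlapped. Of the 4 subunits of the translocon-associated protein complex, SSR1, SSR3 and SSR4 were not called either (-0.03, -0.06 and 0.00). SSR2 stood at 217.0, 215.5 and 203.3 CPM in MSLN-KO and at 195.3, 194.0 and 187.5 CPM in WT (log2 change 0.14, SE 0.05, adjusted p = 0.042). This call was marginal, since it was lost without MSLN-KO replicate 1 or 2 or WT replicate 1 or 3 (adjusted p = 0.17, 0.13, 0.062 and 0.14), without a trend in the variance (0.088), with the median of the region subtracted (0.079) and with a replicate block (0.061).

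The accessory factors SEC62 and SEC63, which together serve proteins that enter after translation, went opposite ways. SEC63, whose J-domain recruits BiP to the channel, stood at 49.8, 50.6 and 54.0 CPM in MSLN-KO and at 34.4, 40.1 and 31.4 CPM in WT (log2 change 0.54, SE 0.08, adjusted p = 0.00018). SEC62 stood at 196.7, 195.8 and 217.8 CPM in MSLN-KO and at 245.7, 253.9 and 242.1 CPM in WT (log2 change -0.28, SE 0.06, adjusted p = 0.0014). In CPM per kb of exon, SEC62 stood at 25.7 in MSLN-KO and 31.2 in WT, and SEC63 at 6.00 in MSLN-KO and 4.11 in WT, so SEC62 remained the higher of the pair in both groups. The ratio of SEC63 to SEC62, in CPM and not per length, was 0.253, 0.259 and 0.248 in MSLN-KO, against 0.140, 0.158 and 0.130 in WT.

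The degradation genes went both ways. Of 12, 2 rose (16.7%, against 22.4% of all genes), 3 fell (25%, against 23.3%) and 7 were not called. These genes were thus called about as often as genes at large (41.7%, against 45.7%), with a median log2 change of -0.06. HERPUD1 (ENSG00000051108.15, chromosome 16, 56932048 to 56944863) encodes a membrane protein that organises the HRD1 ubiquitin ligase complex and is a known target of the unfolded protein and amino acid responses. It stood at 96.5, 95.6 and 98.2 CPM in MSLN-KO and at 67.4, 58.1 and 56.8 CPM in WT (log2 change 0.67, SE 0.07, adjusted p = 4.7e-06), the highest log2 change among the 44. SEL1L, the adaptor subunit of the HRD1 complex, stood at 158.8, 156.6 and 163.6 CPM in MSLN-KO and at 126.8, 141.1 and 125.5 CPM in WT (log2 change 0.28, SE 0.06, adjusted p = 0.0015). SYVN1, which encodes the HRD1 ligase itself, stood at 30.4, 33.3 and 28.9 CPM in MSLN-KO and at 31.1, 30.7 and 32.4 CPM in WT (log2 change -0.03, 95% interval -0.18 to 0.13, adjusted p = 0.79). SYVN1, like SEC61A1 and the pair partner ERO1B, is shown with its values known. In GENCODE 29, 7.24% of the exon bases of SYVN1 also lie in exons of the listed gene FAU on the same strand. The ratio of HERPUD1 to SYVN1 was 3.15 ± 0.26 in MSLN-KO and 1.94 ± 0.21 in WT (SD, n = 3 each).

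The 3 genes that fell were SELENOS, EDEM2 and VCP. SELENOS encodes a selenoprotein that ties VCP to the ER membrane and lies on chromosome 15 (101270817 to 101277500). It stood at 9.91, 10.9 and 9.64 CPM in MSLN-KO and at 15.6, 15.7 and 16.2 CPM in WT (log2 change -0.60, SE 0.08, adjusted p = 7.3e-05). The 19 other listed genes within 10 Mb had a median of -0.45, and with that subtracted SELENOS was no longer called (-0.15, adjusted p = 0.15). EDEM2, which starts the trimming of mannose from misfolded glycoproteins, stood at 61.2, 60.9 and 55.7 CPM in MSLN-KO and at 69.6, 72.6 and 71.7 CPM in WT (log2 change -0.26, SE 0.06, adjusted p = 0.0029). VCP, the ATPase that pulls proteins out of the membrane, stood at 417.9, 417.1 and 392.7 CPM in MSLN-KO and at 489.5, 446.2 and 493.8 CPM in WT (log2 change -0.22, SE 0.06, adjusted p = 0.008).

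The other degradation genes were not called. EDEM1 and EDEM3, paralogues of EDEM2, had log2 changes of -0.10 and 0.11, and OS9, a lectin of the HRD1 complex, of -0.09. DERL1, DERL2 and DERL3, rhomboid-like proteins of the exit channel, had 0.04, -0.13 and 0.09. DERL2 was not called although its groups did not overlap. With the regional median subtracted, EDEM3 (0.19, adjusted p = 0.023) and DERL1 (0.20, adjusted p = 0.0084) were called higher, where that median was -0.08 and -0.16. DERL3 was the lowest of the 44 in CPM, at 4.68 to 6.10 CPM in MSLN-KO and 3.99 to 6.37 CPM in WT, and 77% of its exon bases also lie in exons of SMARCB1 on the opposite strand in GENCODE 29. Without the strand setting of the counting, its reads and those of SMARCB1 cannot be told apart.

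Summed over a role, the same split was seen in each library. The 9 chaperone genes summed to 3828, 3929 and 3762 CPM in MSLN-KO and to 4899, 5057 and 5116 CPM in WT, a ratio of means of 0.764. The 10 oxidative folding genes summed to 2516, 2529 and 2400 CPM in MSLN-KO and to 3320, 3425 and 3371 CPM in WT (0.736). The 4 genes of the sensor role summed to 495, 516 and 503 CPM in MSLN-KO and to 387, 374 and 368 CPM in WT (1.34). Of this sum the factor XBP1 alone averaged 230 CPM in MSLN-KO and 151.4 CPM in WT. The sums of the translocon (0.976) and of the degradation genes (0.975) were close to those of WT. These sums are weighted to abundant genes such as CANX, P4HB and HSP90B1 and were not tested. All 44 genes together made up 1.02% to 1.04% of the summed CPM of all listed genes in the MSLN-KO libraries and 1.19% to 1.23% in the WT libraries.

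**Figure D3:**
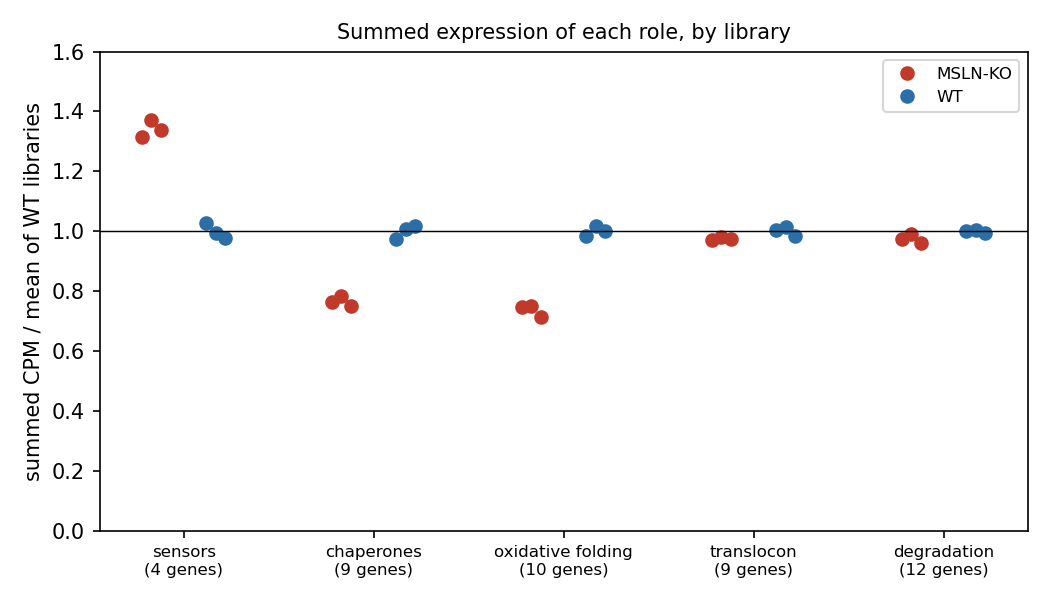
Summed CPM of the genes of each role in every library, divided by the mean of the 3 WT libraries (y axis, from 0), with MSLN-KO in red on the left and WT in blue on the right of each role. The MSLN-KO libraries average 0.764 for chaperones, 0.736 for oxidative folding, 1.34 for the sensors, 0.976 for the translocon and 0.975 for degradation.

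The genes did not follow a single order of libraries within a group. WT replicate 2 was the highest WT library for 21 of the 44 genes and the lowest for 16, and MSLN-KO replicate 3 was the highest MSLN-KO library for 15 and the lowest for 21. Both were thus at 1 end of their group for most of the genes. Over all listed genes, the chi-square of counts over its degrees of freedom was 2.71 between MSLN-KO replicates 1 and 2. It was 12 and 14.3 between these and replicate 3. Replicates of these genes were as tight as those of other genes, with a median coefficient of variation of 4.66% in MSLN-KO and 4.15% in WT, against 5.6% in MSLN-KO and 6.15% in WT over all genes.

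Other genes of the same compartment, on 8 lists that hold none of the 44, gave a measure of how far the pattern reached. Of 121 genes on them 118 were listed, and 27 were higher (22.9%), 29 lower (24.6%) and 62 not called. These shares were close to those of all genes, of which 22.4% were higher and 23.3% lower. Of 9 cofactors of BiP, 4 were higher (44.4%) and 2 lower (22.2%). DNAJB9, a J-domain protein that represses IRE1, stood at 18.9 ± 1.05 CPM in MSLN-KO and 11.5 ± 1.55 CPM in WT (SD, n = 3 each; log2 change 0.68, adjusted p = 0.00011). HSPA13, an atypical HSP70 of the ER, rose as well (0.60, adjusted p = 4e-06). DNAJB11, the J-domain partner of BiP in folding, stood at 91.2 ± 2.35 CPM in MSLN-KO and 120.5 ± 6.66 CPM in WT (-0.40, adjusted p = 9.9e-05, and -0.26 with the regional median subtracted), and DNAJC3 fell by 0.31 (adjusted p = 0.0003).

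Of 14 further thioredoxin-fold and prolyl isomerase genes, 3 were higher (21.4%, against 22.4% of all genes) and 5 lower (35.7%, against 23.3%). PPIB, cyclophilin B, fell by 1.13 on the log2 scale (adjusted p = 1.9e-09) and lies on chromosome 15; with the regional median of -0.57 subtracted it stood at -0.56 (adjusted p = 2e-06). PRDX4, the peroxiredoxin of the ER, stood at 40.7 ± 0.899 CPM in MSLN-KO and 77.8 ± 3.08 CPM in WT (SD, n = 3 each; -0.92, adjusted p = 5.8e-08). TMX4 (0.34) and TXNDC12 (0.29) rose. In the oligosaccharyltransferase, which attaches N-glycans, 3 of 11 were lower (27.3%) and 0 higher. Among those lower were RPN1 at 566.6 ± 23.9 CPM in MSLN-KO and 769.6 ± 37.9 CPM in WT (-0.44, adjusted p = 5.4e-05) and RPN2 (-0.23). Of genes of glycan trimming and lectin transport, 3 of 12 were higher (25%) and 4 lower (33.3%). PRKCSH (0.32) and KDELR1 (0.25) rose, and KDELR3 (-0.43) and KDELR2 (-0.21) fell, the last 3 being receptors that return chaperones to the ER. PRKCSH stood at 0.19 (adjusted p = 0.035) with the regional median subtracted. KDELR3 stood at 3.43 to 4.43 CPM in MSLN-KO and 5.22 to 5.98 CPM in WT. It reached 4.9 CPM, the level that every listed gene reaches in at least 3 libraries, only in WT and was listed through that group alone. The 4 genes lower therefore include 1 that the filter itself set apart. The log2 change of KDELR3 was -0.25 with a pseudocount of 5. KDELR1 was not called without MSLN-KO replicate 1 or 2 or WT replicate 3 (adjusted p = 0.085, 0.059 and 0.063) or with the regional median subtracted (0.11, adjusted p = 0.25).

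The genes of targeting and insertion were called about as often as others. On a list of 16 for the signal recognition particle, signal peptidase and associated factors, 1 was higher and 5 lower (37.5% called, against 45.7% of all genes). The gene that rose was HM13 (0.18), an associated factor. SRP14 stood at -0.64 and TRAM1, also an associated factor, at -0.33 (-0.17, adjusted p = 0.021, with the regional median subtracted). Of 16 of the ER membrane complex and tail-anchor insertion (50% called), 3 were higher, led by CAMLG and GET3 at 0.33 each, and 5 lower, led by EMC4 (-0.59) and EMC7 (-0.48). SRP14, EMC4 and EMC7 lie on chromosome 15, and none of them was called lower with the regional median subtracted. SEC11A, also on chromosome 15 and lower (-0.22), was called higher with that median subtracted (0.38, adjusted p = 0.0007). On other chromosomes, SRP54 (-0.09, adjusted p = 0.18) and EMC2 (-0.20, adjusted p = 0.055) also lost their calls of lower. These 3 genes were named after their values were seen. GET3 was not called without MSLN-KO replicate 1 or 2 (adjusted p = 0.068 and 0.058) or with that median subtracted (0.21, adjusted p = 0.11), and HM13 not without MSLN-KO replicate 1 or 2 or WT replicate 3 (0.067, 0.063 and 0.077). Of 24 other degradation factors, 18 were not called (25% called). RHBDD1, a rhomboid protease of the ER, was 50.8 ± 0.421 CPM in MSLN-KO and 31.2 ± 3.89 CPM in WT (SD, n = 3 each; 0.69, adjusted p = 1.9e-05), JKAMP rose (0.30), and FAF2 and AUP1 fell (-0.22 each). AUP1 was not called without MSLN-KO replicate 2 or WT replicate 1 or 3 (adjusted p = 0.057, 0.063 and 0.065).

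The list of other stress transducers and their targets had 10 of 16 genes higher (62.5%, against 22.4% of all genes) and 2 lower (12.5%, against 23.3%). The log2 changes highest on the list were those of CHAC1 (1.90) and TRIB3 (1.86), targets of ATF4 and CHOP. ATF4 itself (1.28, adjusted p = 2.9e-08) and the CHOP gene DDIT3 (1.57, adjusted p = 4.9e-09), both named after their values were seen, were higher too. CHAC1, on chromosome 15, stood at 11.03, 13.07 and 10.34 CPM in MSLN-KO and at 3.75, 2.05 and 1.56 CPM in WT. It reached 4.9 CPM, the level that every listed gene reaches in at least 3 libraries, only in MSLN-KO and had to differ to be listed. The 10 genes higher therefore include 1 that the filter itself set apart. The log2 change of CHAC1 ran from 1.15 with a pseudocount of 5 to 2.43 with the regional median subtracted. TRIB3 stood at 76.5 ± 4.98 CPM in MSLN-KO and 20.5 ± 3.19 CPM in WT (SD, n = 3 each; adjusted p = 7.1e-09), with a log2 change of 1.68 to 1.97 over the alternatives. CREB3 (-0.21) and MBTPS1 (-0.18), a Golgi protease that cleaves ATF6, fell, and neither call held without MSLN-KO replicate 2 (adjusted p = 0.052 and 0.14). The call of MBTPS1 was also lost without MSLN-KO replicate 1 or WT replicate 1 or 3, without a trend in the variance and with either rescaling (adjusted p between 0.064 and 0.16). MBTPS2, on the same list and named after its value was seen, rose (0.46, adjusted p = 0.0011, and 0.63 with the regional median subtracted).

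**Figure D4:**
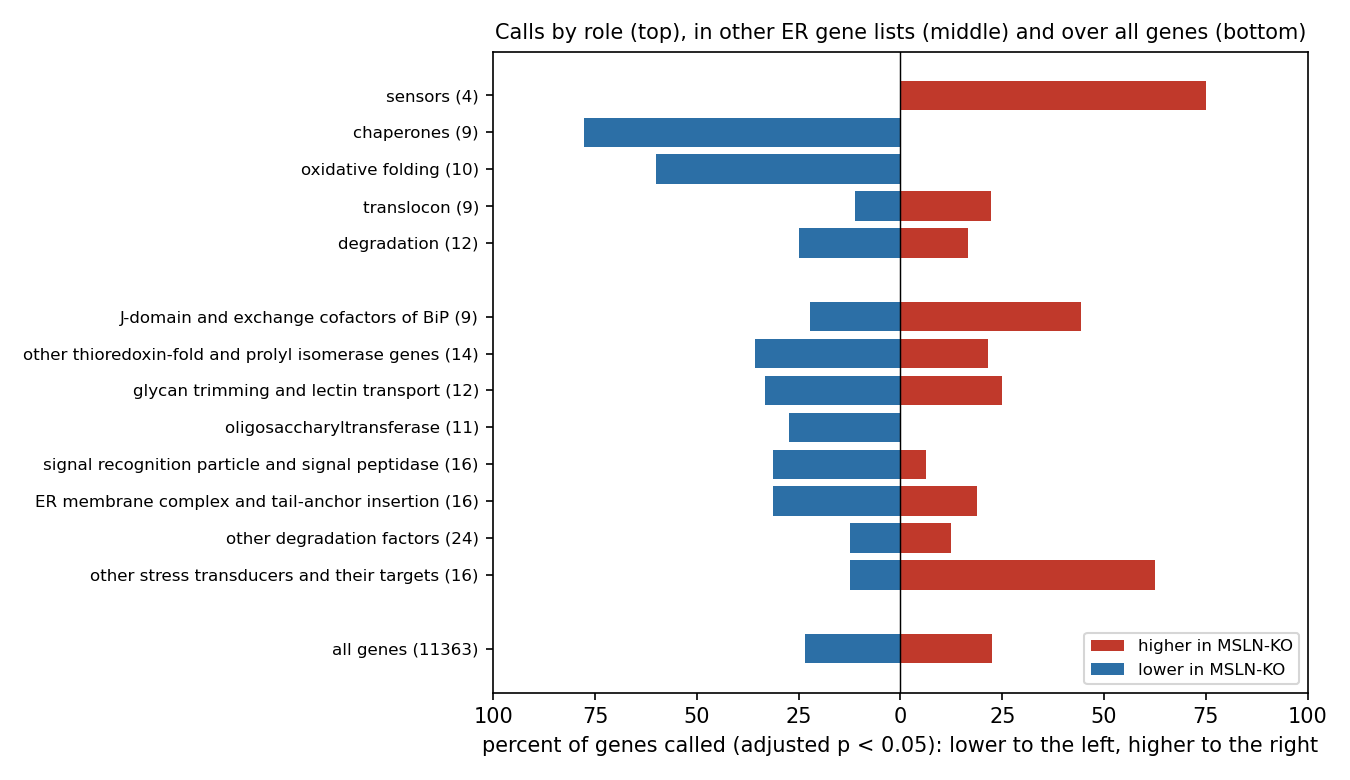
Percent of genes called higher (red, to the right) and lower (blue, to the left) in MSLN-KO for the 5 roles of the 44 genes, for 8 other lists of ER genes and for all 11363 genes, with the number of listed genes in brackets. The chaperone bar reaches 77.8% to the left and the sensor bar 75% to the right, against 23.3% lower and 22.4% higher over all genes.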

How the data were processed

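RNA sequencing covered 6 libraries of NOMO-1, 3 MSLN-KO and 3 WT. Per the labels' protocols, stranded libraries were made from total RNA with a kit that removes ribosomal RNA. The submitters' processing notes name the tools STAR, featureCounts and edgeR and the build GRCh38/hg38, but no version, and neither annotation release nor strand setting is stated. The values the authors deposited, 1 column per library, are CPM by their totals and steps, and the name of the deposited table calls them TMM-normalized. In every column 100% of values were whole multiples of 1 step, within 0.01, from which depth was read. Every listed gene reached 4.9 CPM or more in at least 3 libraries; lower genes are not analysed here.

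Identifiers were matched to symbols for 11354 of 11363 genes, and coordinates came from GENCODE 29 for 11314. The groups were compared with limma 3.58.1 in R 4.3.3 (lmFit, eBayes with trend) on log2(CPM + 1), all 6 libraries, no covariates, two-sided, Benjamini-Hochberg over all genes, called under 0.05. Log2 changes are on that scale, which understates low genes. The fit was tested on simulated data. The members and lists were chosen with earlier results of these data known, so no list was tested. Values per library are given, in each role, for up to 4 called genes in each direction and all sensors; of each other list up to 2 in each direction are named, by log2 change or group mean. Those outside this rule (CANX, HSPA5, ERO1B, SEC61A1, SYVN1, EIF2AK3, ATF4, DDIT3, SEC11A, SRP54, EMC2, MBTPS2) were chosen after their values were seen. Alternatives changed pseudocount, filter, scaling, trend, block and regional shift, and left out libraries or chromosome 15. The planned count models were not run, and protein sequences were not used. No libraries within a group were duplicates (chi-square of counts over its degrees of freedom, 2.71 to 14.8).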

Additional observations from a re-analysis of the deposited data

How the results depend on the processing

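Of the 24 members called, 19 were called in the same direction in every one of the 16 alternatives that fitted them; CANX, HSPA5, SDF2L1, SELENOS and SSR2 were not, and each is described with its values above. Of the 20 members not called, 16 were called in no alternative. Leaving out each library in turn gave between 16 and 18 members lower and between 6 and 8 higher, against 17 and 7, and for chaperones 5 to 7 lower, for oxidative folding 6 to 7 lower and for sensors 3 to 4 higher. For the translocon it gave 1 to 2 higher; this count was also 1, against 2, without a trend in the variance, after subtraction of the regional median and with the replicate block, since SSR2 was lost. With the regional median subtracted, 4 degradation genes were higher, against 2. Among the other ER genes named, EMC7 reversed to 0.04 (adjusted p = 0.69) and SEC11A to 0.38 (adjusted p = 0.0007). The replicate block changed no other call of a member. The replicate numbers did not pair the libraries (correlations of same-numbered deviations of 0.19, -0.17 and -0.09). The highest correlation between libraries of the 2 groups was that of MSLN-KO replicate 3 with WT replicate 2 (0.30). Rescaling to column totals or upper quartiles shifted the median of all genes by 0.032 and 0.035 on the log2 scale. The planned count-model tests (edgeR, DESeq2) were not run. At 3 libraries a group, changes of low genes such as DERL3 and ERO1B have intervals reaching 0.41 and 0.30.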
